A study of Mus musculus with 2 samples.

Results

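The receptors of the bone morphogenetic protein (BMP) and transforming growth factor beta (TGF-beta) family were followed across the cell classes of mouse lung. The 10 genes were Acvrl1, Bmpr1a, Acvr1 and Tgfbr1 (type I receptors), Bmpr2, Acvr2a, Acvr2b and Tgfbr2 (type II receptors), and Eng and Tgfbr3 (co-receptors). They were chosen by symbol, and all 10 were found among the 27998 genes of each library. Ligands of this family bind pairs of type II and type I serine/threonine kinases, and the type II kinase switches on the type I kinase, which phosphorylates SMAD proteins that carry the signal to the nucleus. In endothelium, BMP9 and BMP10 act mainly through ALK1, the product of Acvrl1, with the type II receptor of Bmpr2 and the co-receptor endoglin of Eng, and Id1 and Id3 are classic targets of this route. Human mutations of ENG and ACVRL1 cause hereditary hemorrhagic telangiectasia types 1 and 2, in which arteries join veins without capillaries between them, and mutations of BMPR2 cause pulmonary arterial hypertension.

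The study models the type 2 disease in C57BL/6J mice and profiled single lung cells at 10 to 12 weeks, with 1 library from knockout mice (KO) and 1 from wild-type mice (WT). The labels do not name the deleted gene, the driver of the deletion, the number of animals in a library or a treatment, and both libraries came from cells sorted for VE-cadherin, an endothelial junction protein, and against CD45, a leukocyte protein. With 1 library per group no difference has a replicate check and none was tested, so the 95% intervals in brackets cover counting error only. The KO matrix held 2196 barcodes with 17864581 UMIs (unique molecular identifiers, 1 per captured transcript end) and the WT matrix 3482 barcodes with 25667220 UMIs. After filtering, 1314 KO cells with a median of 8654 UMIs and 2708 WT cells with a median of 5423 UMIs remained. The libraries shared 12 barcodes, 6 of them among the cells kept. The libraries differed in sex-linked transcripts: of the KO endothelial-like cells, 77 had Xist alone and 267 Y-linked transcripts alone, whereas 1372 WT endothelial-like cells had Xist alone and none had Y-linked transcripts alone. Sex and genotype therefore cannot be told apart in most of what follows.

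Levels are UMIs of a gene scaled to a class total of 1000000 UMIs (CPM), and since only transcript ends are counted they were not divided by gene length. The 10 receptors took no part in the clustering. Clusters were named from marker genes as general capillary cells (gCap-like), aerocytes of the alveolar capillaries (aCap-like), arterial-like, venous-like, alveolar type 2 epithelial (AT2-like), smooth muscle-like and pericyte-like. Clusters led by Esm1 and by Igfbp3 were endothelial without a subtype name, and those led by Dcn and by Inmt were fibroblast-like. The Igfbp3-led cluster held 121 KO and 2 WT cells, and is given for KO alone. Although the labels call all cells lung endothelial, 494 of 1314 KO cells and 1499 of 2708 WT cells were endothelial-like, and 586 KO and 816 WT cells were AT2-like. The 14 endothelial markers summed to 143 CPM in KO and 269 CPM in WT AT2-like cells, against 21205 CPM in KO and 22921 CPM in WT endothelial-like cells.

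Among the type I receptors, Acvrl1 was highest in the endothelial classes of at least 20 cells, and Bmpr1a in AT2-like and smooth muscle-like cells. Acvrl1 (chromosome 15, 101128522 to 101145336, plus strand, GRCm38) stood highest in aerocytes, at 1738 CPM (1616 to 1867) in KO and 1908 CPM (1850.0 to 1968) in WT. This was above gCap-like cells, at 1264 CPM (1194 to 1337) in KO and 1311 CPM (1267 to 1357) in WT. The Esm1-led cluster had 1181 CPM in KO and 1264 CPM in WT, and arterial-like cells 1168 CPM in KO and 1195 CPM in WT. The intervals of these last 3 classes overlapped within each library. Venous-like cells followed, at 612 CPM (482 to 766) in 14 KO cells and 828 CPM (735 to 931) in 52 WT cells, and in WT this interval lay below that of the arterial-like cells. The lowest endothelial level among classes of at least 20 cells was that of the Igfbp3-led KO cluster, 407 CPM (361 to 459).

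Outside the endothelium Acvrl1 was lower. Pericyte-like cells had 96.1 CPM (56.0 to 154) in KO and 186 CPM (110.0 to 293) in WT, and the Inmt-led fibroblast-like cluster 37.5 CPM (18.7 to 67.1) in KO and 139 CPM (108 to 176) in WT. It stood at 82.4 CPM in KO and 103 CPM in WT Dcn-led fibroblast-like cells, and at 43.6 CPM in KO and 65.6 CPM in WT smooth muscle-like cells. In AT2-like cells the Acvrl1 level was 3.04 CPM (2.09 to 4.27) in KO and 15.8 CPM (13.8 to 18.0) in WT. With each cell thinned to 1500 UMIs, 0.557% of KO and 1.62% of WT AT2-like cells had an Acvrl1 UMI, against 83.3% of KO and 83.9% of WT gCap-like cells. Unthinned, 5.46% of KO and 22.3% of WT AT2-like cells had one, against 170 of 179 KO and 572 of 586 WT gCap-like cells. Median depths were 19657 UMIs in KO and 17666 UMIs in WT AT2-like cells, and 5337 UMIs in KO and 4206 UMIs in WT gCap-like cells. Whether the AT2-like level is background RNA was not tested.

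Bmpr1a encodes ALK3, the type I receptor of BMP2 and BMP4 in many tissues. It was nearly absent from endothelium, at 4.91 CPM (2.62 to 8.40) over all KO and 5.74 CPM (4.06 to 7.88) over all WT endothelial-like cells. Smooth muscle-like cells had the highest level in both libraries, 143 CPM (114 to 176) in KO and 148 CPM (119.9 to 179.6) in WT. The 2 fibroblast-like clusters lay between 90.4 and 106 CPM in KO and between 103 and 107 CPM in WT, with intervals that overlapped those of smooth muscle-like cells. AT2-like cells had 51.5 CPM (47.3 to 56.0) in KO and 56.7 CPM (52.9 to 60.8) in WT, and there Bmpr1a made up 52.9% of the UMIs of the 4 type I receptors in KO and 50.3% in WT. In gCap-like cells the share of Acvrl1 among those UMIs was 94.3% in KO and 94.0% in WT.

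The remaining type I genes were low in every endothelial class. Acvr1, which encodes the BMP and activin receptor ALK2, lay between 14.0 and 45.1 CPM in KO and between 21.1 and 39.6 CPM in WT over the endothelial classes. It was 14.7 CPM (12.5 to 17.1) in KO and 14.4 CPM (12.5 to 16.6) in WT AT2-like cells. Tgfbr1, which encodes the TGF-beta receptor ALK5, lay between 31.4 and 59.3 CPM in KO and between 28.6 and 48.4 CPM in WT endothelial classes. In AT2-like cells Tgfbr1 was 28.1 CPM in KO and 25.7 CPM in WT. Both genes were thus low but present in endothelium and epithelium alike.

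**Figure D1:**
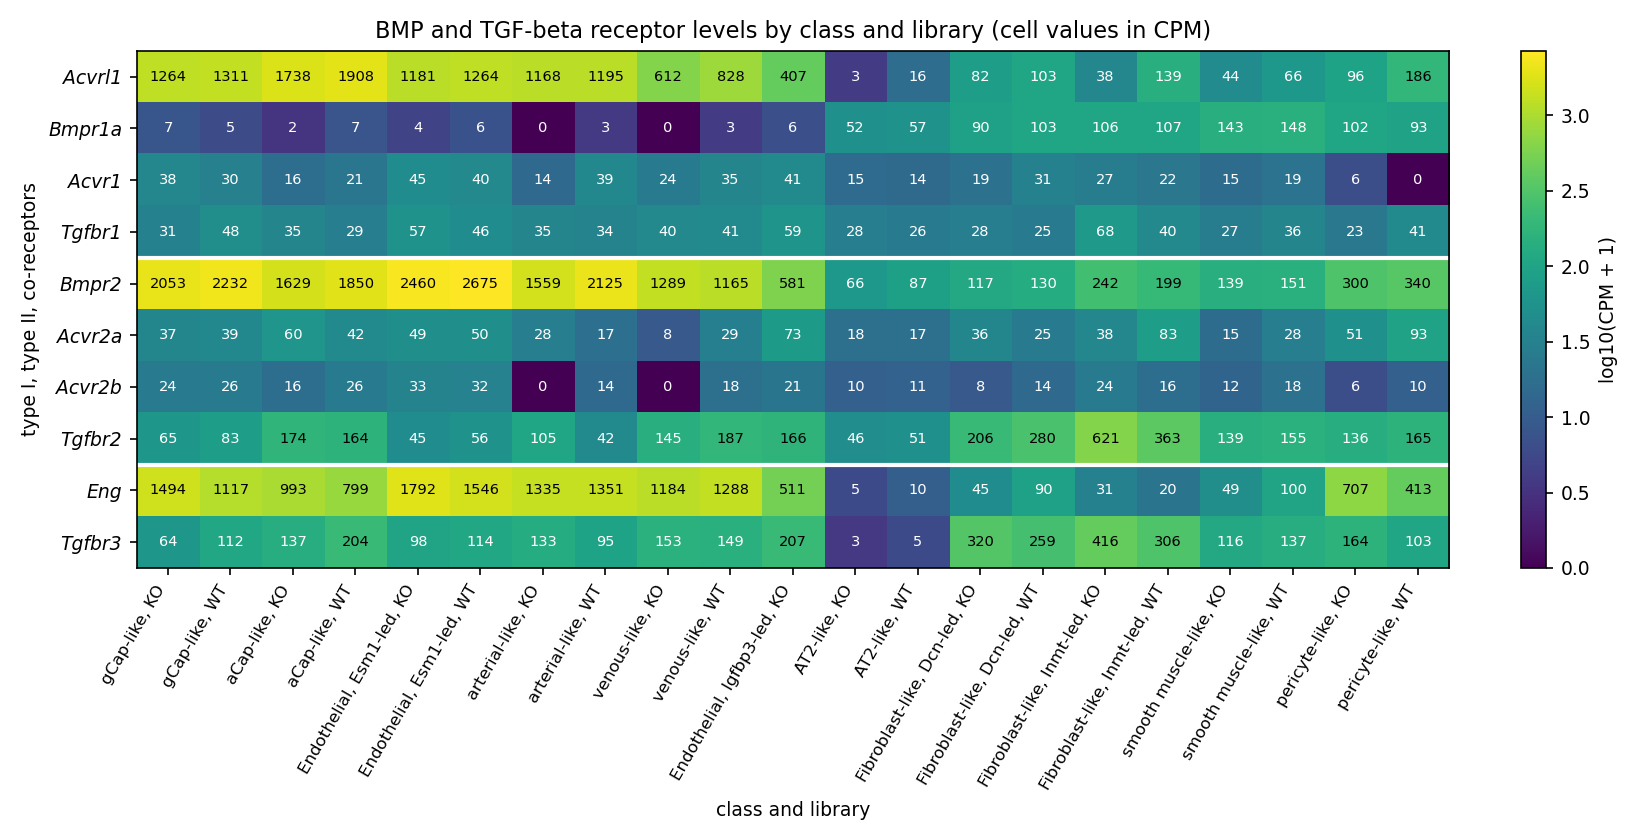
Level of each of the 10 receptors (rows, grouped as type I, type II and co-receptors) in each class and library (columns, KO left of WT), with the CPM printed in each cell and the colour on a log10(CPM + 1) scale. Acvrl1, Bmpr2 and Eng are bright in endothelial columns and Bmpr1a is dark there, while Tgfbr2 and Tgfbr3 are brightest in the 2 fibroblast-like clusters.

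Bmpr2, the type II receptor that pairs with ALK1 and ALK3, was the most abundant of the 10 receptors in gCap-like cells, at 2053 CPM (1963 to 2146) in KO and 2232 CPM (2174 to 2292) in WT. Its highest level was in the Esm1-led cluster, 2460.0 CPM (2267 to 2665) in KO and 2675 CPM (2585 to 2766) in WT, and in both libraries this lay above the gCap-like interval. Aerocytes, where Acvrl1 was highest, had less, 1629 CPM (1511 to 1754) in KO and 1850.1 CPM (1793 to 1909) in WT. Arterial-like cells had 1559 CPM (1361 to 1778) in KO and 2125 CPM (1977 to 2281) in WT, venous-like cells 1289 CPM (1097 to 1505) in KO and 1165 CPM (1053 to 1285) in WT, and the Igfbp3-led KO cluster 581 CPM (525 to 641).

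Bmpr2 was also measured outside the endothelium. AT2-like cells had 66.3 CPM (61.5 to 71.3) in KO and 87.0 CPM (82.1 to 92.0) in WT. The level of Bmpr2 over that of Acvrl1 was 21.8 in KO and 5.51 in WT AT2-like cells, against 1.46 in KO and 1.46 in WT endothelial-like cells. Smooth muscle-like cells had 139 CPM in KO and 151 CPM in WT, and pericyte-like cells 299.6 CPM (224 to 392) in KO and 340.4 CPM (234 to 478) in WT.

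Tgfbr2, the type II receptor of TGF-beta itself, was highest in fibroblast-like cells among classes of at least 20 cells. The Inmt-led cluster stood first, at 621 CPM (534 to 718) in KO and 363 CPM (312 to 419.7) in WT, followed by the Dcn-led cluster at 206 CPM (175 to 241) in KO and 280.1 CPM (245 to 319) in WT. Within the endothelium aerocytes had 174 CPM (137 to 218) in KO and 164 CPM (147 to 182) in WT, above gCap-like cells at 64.8 CPM (49.7 to 83.1) in KO and 82.7 CPM (71.8 to 94.8) in WT, and these intervals did not overlap. The Igfbp3-led KO cluster had 166 CPM (137 to 199.7), which overlapped that of KO aerocytes. Venous-like cells had 145 CPM (86.0 to 229) in KO and 187 CPM (144 to 239) in WT. The Esm1-led cluster, where Bmpr2 was highest, had only 45.1 CPM in KO and 56.2 CPM in WT.

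The activin type II receptors were low. Acvr2a lay between 8.06 and 72.6 CPM in KO and between 16.8 and 49.9 CPM in WT endothelial classes. Acvr2b lay between 0 and 32.8 CPM in KO and between 14.0 and 31.7 CPM in WT endothelial classes. The 2 zeros were in arterial-like and venous-like KO cells, where the interval reached 25.8 CPM in arterial-like and 29.7 CPM in venous-like cells. Of all type II UMIs, Bmpr2 made up 94.2% in KO and 93.8% in WT gCap-like cells, and Tgfbr2 56.2% in KO and 62.4% in WT Dcn-led fibroblast-like cells.

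**Figure D2:**
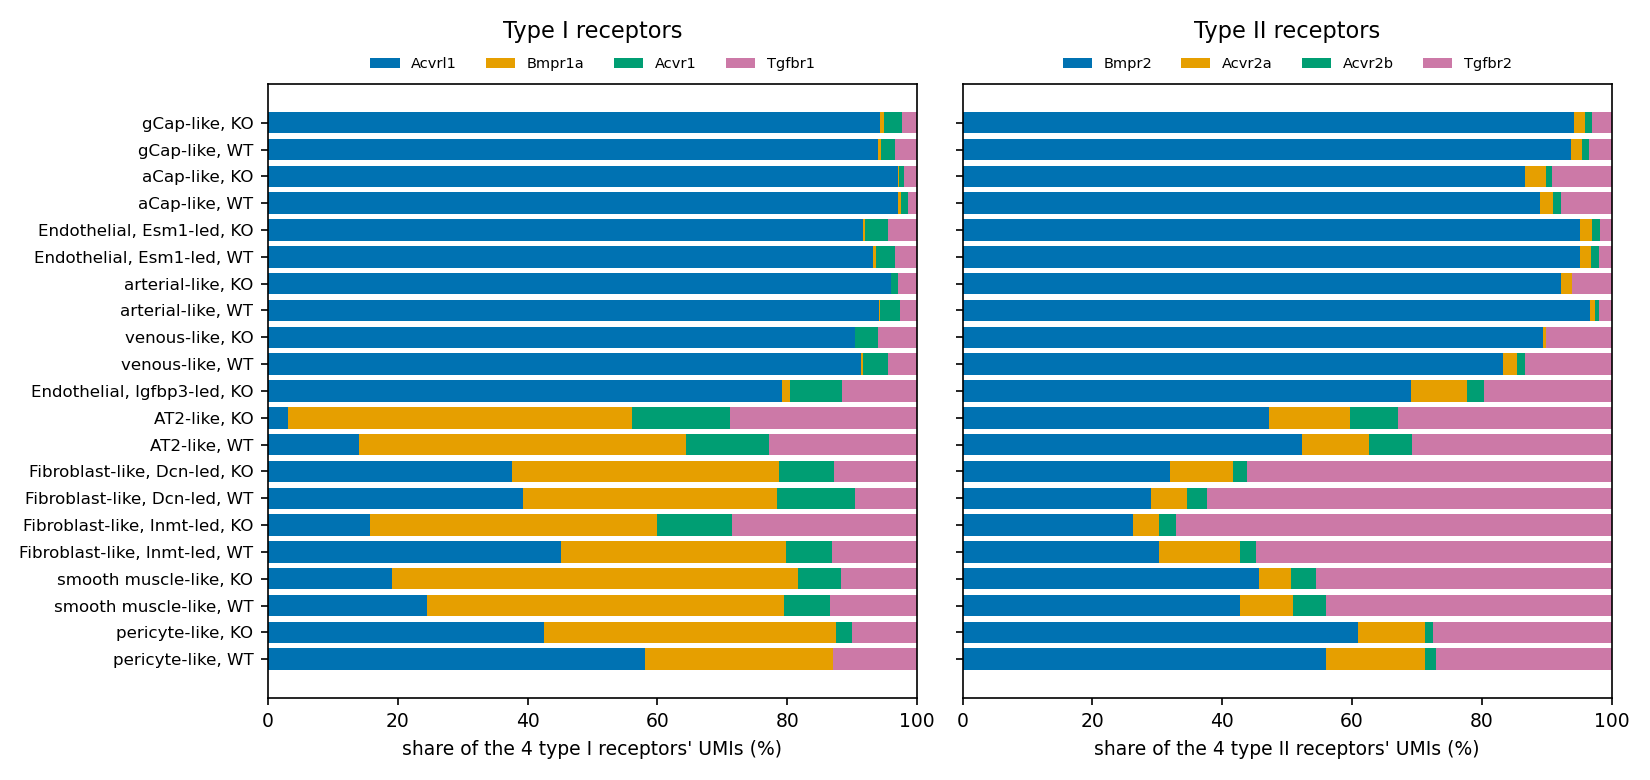
Share of the UMIs of the 4 type I receptors (left) and of the 4 type II receptors (right) that each gene held, in percent, by class and library (rows, KO above WT). Acvrl1 and Bmpr2 fill most of the bars in endothelial classes, 79.3% and 69.1% even in the Igfbp3-led KO cluster, while Bmpr1a and Tgfbr2 take larger shares in AT2-like and stromal classes.

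Of the co-receptors, Eng was endothelial and pericytic, and Tgfbr3 was highest in fibroblast-like cells among classes of at least 20 cells. Endoglin presents BMP9 and BMP10 to ALK1. Eng stood highest in the Esm1-led cluster, at 1792 CPM (1628 to 1968) in KO and 1546 CPM (1479 to 1616) in WT, and lower in gCap-like cells, at 1494 CPM (1417 to 1573) in KO and 1117 CPM (1076 to 1159) in WT. Aerocytes had 993 CPM (901 to 1092) in KO and 799 CPM (762 to 838) in WT, so the class with the most Acvrl1 had less Eng than any of the other 4 WT endothelial classes shown. The Igfbp3-led KO cluster had 511 CPM (459 to 568).

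Pericyte-like cells held 707 CPM (588 to 842) in 21 KO cells and 413 CPM (295 to 562) in 23 WT cells. The ratio of Eng to Acvrl1 there was 7.35 in KO and 2.22 in WT, against 1.08 in KO and 0.763 in WT endothelial-like cells. AT2-like cells had 4.89 CPM in KO and 9.79 CPM in WT. Tgfbr3 encodes betaglycan, a co-receptor for TGF-beta2 and inhibin. It was highest in the Inmt-led fibroblast-like cluster, at 416 CPM (346 to 497) in KO and 306 CPM (259 to 359) in WT, and in the Dcn-led cluster, at 320.5 CPM (281 to 364) in KO and 259 CPM (225 to 297) in WT. Within the endothelium the Igfbp3-led KO cluster had 207 CPM (174 to 245), and aerocytes 137 CPM (104 to 177) in KO and 204 CPM (185 to 224) in WT. Venous-like WT cells had 149 CPM (111 to 196). Pericyte-like cells had 164 CPM in KO and 103 CPM in WT, and smooth muscle-like cells 116 CPM in KO and 137 CPM in WT. AT2-like cells had 2.67 CPM in KO and 4.86 CPM in WT, the lowest of the classes shown in both libraries.

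Across the 20 profiles (a class in a library with at least 20 cells), the receptors differed in how alike their patterns were. Pearson's r of log2(CPM + 10) was 0.96 between Acvrl1 and Bmpr2, 0.92 between Bmpr2 and Eng and 0.91 between Acvrl1 and Eng. Between Tgfbr2 and Tgfbr3 it was 0.75, between Bmpr1a and Tgfbr3 0.09, between Acvr1 and Acvr2b 0.64, and between Bmpr1a and Bmpr2 -0.88. These are descriptions, since KO and WT profiles of a class share a cell type and all profiles of a library share its RNA background. Among 7201 genes, the patterns most like that of Acvrl1 were those of Tmem100 (r = 0.98), Klf2 (0.97) and Ramp2 (0.97). For Eng they were BC028528 (0.97), Foxf1 (0.96) and Dennd5b (0.96), and for Bmpr2 Adgre5 (0.98), Pitpnc1 (0.98) and Tspan7 (0.97). Tgfbr2 was nearest to Gabarapl1 (0.88), Fkbp9 (0.85) and Ddb1 (0.85), and Tgfbr3 to Pros1 (0.93), Plpp3 (0.91) and Psap (0.90).

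The promoter windows of Eng and Bmpr2 are shown because these genes move together here, and that of Tgfbr2 because it does not follow them. Each is the window of 300 bases around the gene's start in the RefSeq table (GRCm38.p6), in which 8 of the 10 receptors matched. Eng is at chr2:32646345-32646644 (plus strand), Bmpr2 at chr1:59764029-59764328 (plus strand) and Tgfbr2 at chr9:116175314-116175613 (minus strand). In the GENCODE M21 annotation Bmpr2 starts at 59763400, so its window lies inside the gene, while the windows of Eng and Tgfbr2 hold the annotated starts. Each is written 5′ to 3′ on the gene's strand, and capitals mark GGAA or its reverse complement TTCC, the core bound by ETS factors, the family that includes the endothelial factor Erg.
Eng: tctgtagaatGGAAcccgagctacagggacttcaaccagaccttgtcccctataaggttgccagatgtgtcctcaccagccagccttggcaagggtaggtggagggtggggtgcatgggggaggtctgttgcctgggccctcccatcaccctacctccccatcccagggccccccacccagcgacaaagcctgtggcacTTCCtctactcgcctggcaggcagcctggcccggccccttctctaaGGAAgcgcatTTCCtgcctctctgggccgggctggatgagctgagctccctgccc
Bmpr2: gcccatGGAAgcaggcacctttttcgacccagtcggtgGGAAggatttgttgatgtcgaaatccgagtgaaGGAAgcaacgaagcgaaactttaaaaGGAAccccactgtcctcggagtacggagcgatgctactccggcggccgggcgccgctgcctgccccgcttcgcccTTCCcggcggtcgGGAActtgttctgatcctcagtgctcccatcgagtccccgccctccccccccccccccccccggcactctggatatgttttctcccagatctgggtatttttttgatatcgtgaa
Tgfbr2: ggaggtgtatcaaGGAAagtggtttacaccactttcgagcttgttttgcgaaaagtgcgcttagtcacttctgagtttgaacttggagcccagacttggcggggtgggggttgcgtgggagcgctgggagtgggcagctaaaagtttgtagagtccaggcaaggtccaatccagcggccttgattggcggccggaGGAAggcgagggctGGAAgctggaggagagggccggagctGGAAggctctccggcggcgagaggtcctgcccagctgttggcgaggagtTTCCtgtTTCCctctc
The core occurred 4 times in Eng, 6 times in Bmpr2 and 6 times in Tgfbr2, with a median of 3 over the 32851 windows of the table, of which 96.0% hold at least 1. The GC-rich motif GGCGCC, which SMAD1 and SMAD5 can bind, was found once in Bmpr2 and in neither of the other windows, on either strand, against 11.9% of all windows. The GC box GGGCGG was likewise found once in Bmpr2 and in neither of the others, against 35.7% of all windows. The 2 GC-rich motifs do not overlap in the Bmpr2 window. These matches describe letters alone and say nothing of which factors bind there.

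The first comparison set KO against WT within each class. A gene was called past the size rule at 1.5-fold either way, with intervals that did not overlap and a mean of at least 10 CPM. In gCap-like cells, Acvrl1 and Bmpr2 differed little: the KO over WT ratio was 0.964 (0.902 to 1.03) for Acvrl1 and 0.920 (0.873 to 0.968) for Bmpr2. Counted transcript ends can lie outside a deleted stretch, so these levels do not check a deletion. Tgfbr3 alone passed the rule, at 63.8 CPM (48.8 to 81.9) in KO and 112 CPM (98.8 to 125) in WT, a ratio of 0.572 (0.426 to 0.757). This 1 call among the 9 receptors with enough UMIs stands beside 4.03% of all genes tested. With cells thinned to 1500 UMIs and at clustering resolution 2 it was lost.

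Eng missed the 1.5-fold of the rule in gCap-like cells, with a ratio of 1.34 (1.25 to 1.43). Tgfbr1 had 31.4 CPM (21.2 to 44.8) in KO and 48.4 CPM (40.1 to 57.8) in WT, with overlapping intervals. In aerocytes none of 9 receptors passed the rule, against 3.67% of all genes. There the ratio was 0.911 (0.842 to 0.985) for Acvrl1, 0.881 (0.812 to 0.955) for Bmpr2, 1.24 (1.12 to 1.38) for Eng and 0.673 (0.504 to 0.885) for Tgfbr3. In both capillary classes the ratio of Eng thus lay above 1 and those of Tgfbr3 and Bmpr2 below 1, with intervals that did not include 1. For Bmpr2 in gCap-like cells this direction was not kept throughout, as its log2 ratio ran from -0.30 to 0.04 over 12 alternative settings. Eng and Tgfbr3 in both classes, and Bmpr2 in aerocytes, kept their direction. The Acvrl1 interval did not include 1 in aerocytes alone. As the mean of each cell's CPM, judged by size alone, 4 receptors passed in aerocytes, namely Acvr2a higher and Acvr1, Acvr2b and Tgfbr3 lower. No share over all genes was taken by that measure, so this count has no background and is not read as a result. In KO gCap-like cells 106 cells had Y-linked transcripts alone and none Xist alone, while WT cells with sex-linked transcripts had Xist, so that sex and genotype cannot be told apart here.

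No receptor passed the rule in the Esm1-led cluster (9 tested, background 4.13%) or in arterial-like cells (8 tested, background 2.23%). None passed in venous-like cells (8 tested, background 2.47%) or in AT2-like cells (7 tested, background 4.18%). In AT2-like cells Acvrl1, Eng and Tgfbr3 had a mean under 10 CPM, so the rule could not call them. There Acvrl1 stood at 3.04 CPM (2.09 to 4.27) in KO and 15.8 CPM (13.8 to 18.0) in WT, and these intervals did not overlap. Arterial-like cells had a Bmpr2 ratio of 0.734 (0.629 to 0.853) and a Tgfbr2 ratio of 2.50 (1.14 to 5.50), which rests on 15 UMIs in each library with overlapping level intervals. Over all endothelial-like cells none passed either, against 9.01% of genes, with a ratio of 0.716 (0.686 to 0.747) for Acvrl1, 0.719 (0.694 to 0.744) for Bmpr2 and 1.01 (0.970 to 1.06) for Eng. As a log2 ratio, that of Acvrl1 was -0.48, and -0.21 without the Igfbp3-led cluster.

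**Figure D3:**
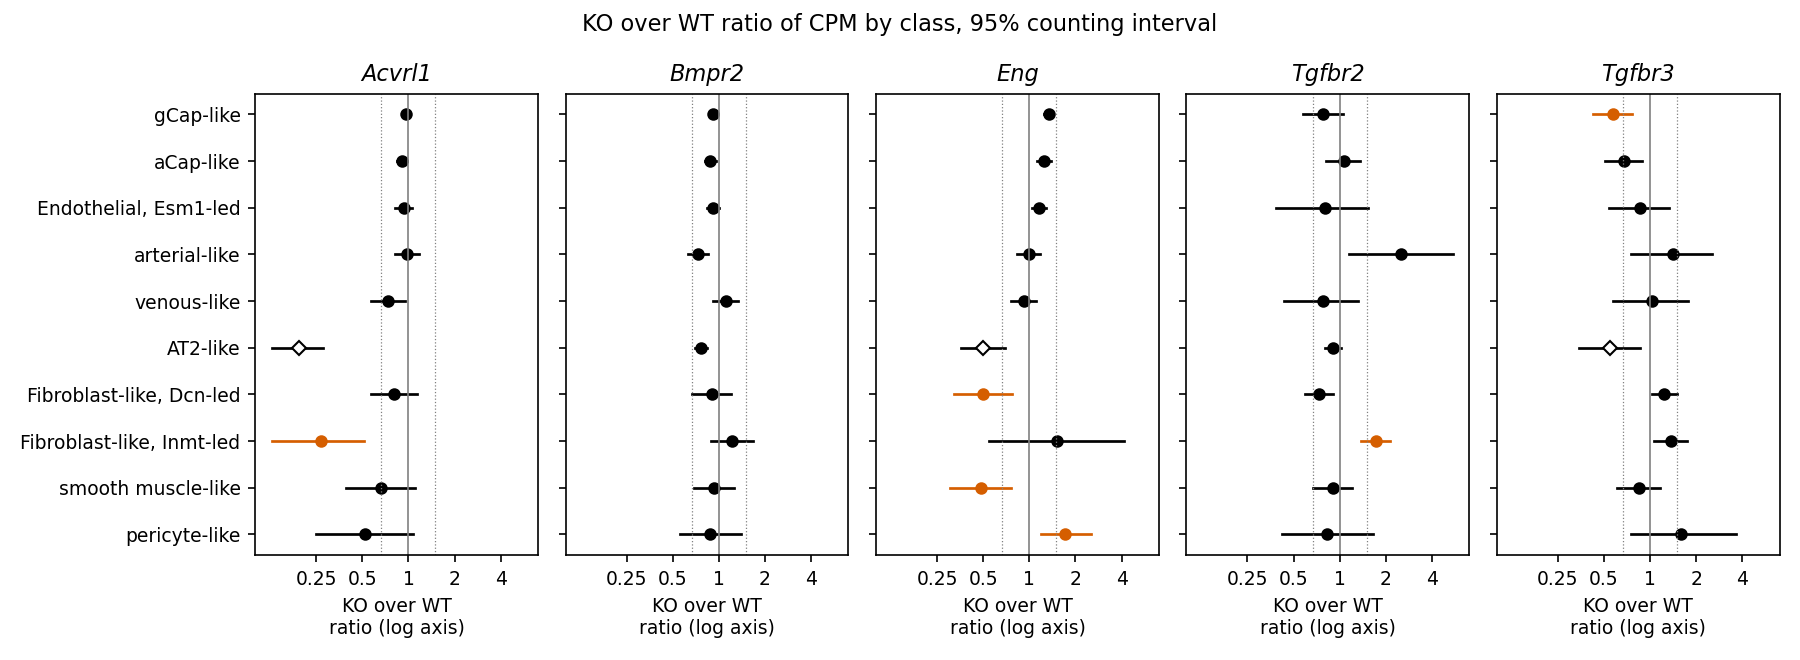
Ratio of KO over WT CPM (horizontal log axis) of 5 receptors in each class (rows), with 95% counting intervals. Orange marks ratios past the size rule, open diamonds mark a mean under 10 CPM, and dotted lines mark 1.5-fold. Acvrl1 and Bmpr2 sit near 1 in gCap-like and aCap-like cells, where Eng lies above 1 and Tgfbr3 below it.

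Among stromal classes the calls were scattered. Eng was lower in KO in Dcn-led fibroblast-like cells, at 45.2 CPM (31.3 to 63.2) in KO and 90.0 CPM (70.4 to 113) in WT (1 of 10 receptors, background 6.37%). It was also lower in smooth muscle-like cells, at 48.6 CPM (32.6 to 69.9) in KO and 99.9 CPM (77.4 to 127) in WT (1 of 10, background 6.00%). The summed endothelial markers moved the same way, at 342 CPM in KO and 605 CPM in WT Dcn-led cells and 193 CPM in KO and 733 CPM in WT smooth muscle-like cells. Their part in the Eng difference was not tested.

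In pericyte-like cells Eng was higher in KO, with a ratio of 1.71 (1.19 to 2.51) (1 of 8 receptors tested, background 4.30%), while the endothelial markers were lower, at 379 CPM in KO and 2094 CPM in WT. The 5 cells with most Eng held 55.2% of the KO and 62.5% of the WT pericyte-like UMIs of the gene. In the Inmt-led fibroblast-like cluster Acvrl1 was lower, at 37.5 CPM (18.7 to 67.1) in KO and 139 CPM (108 to 176) in WT, and Tgfbr2 was higher, with a ratio of 1.71 (1.39 to 2.11) (2 of 10, background 9.31%). In that cluster the endothelial markers summed to 126 CPM in KO and 529.9 CPM in WT. The AT2 markers summed to 1985 CPM in KO and 43675 CPM in WT, and the part of either in these ratios was not tested.

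Of the other 71 pathway genes, 40 were tested in gCap-like cells, where 6 were higher and 2 lower in KO, beside 4.03% of all genes called in either direction. Their median log2 ratio was 0.04, beside -0.02 over all genes. Among the targets, Cdkn1a, a cell cycle inhibitor, stood at 553 CPM in KO and 296 CPM in WT, and Ctgf, a matrix-associated growth factor, at 112 CPM in KO and 38.4 CPM in WT. Smad6, the inhibitory SMAD of the BMP branch, stood at 608 CPM in KO and 347 CPM in WT. Inhbb, Skil and Stc1 were also higher, and Ltbp4 and the target Id2 lower, Id2 at 70.0 CPM in KO and 161 CPM in WT. In aerocytes 5 of 39 were higher and none lower, namely Tgfb2, Twsg1, Smad1, Ppp1r15a and Ctgf, beside 3.67% of all genes called in either direction. Smad1, which carries BMP signals, had 85.9 CPM in KO and 35.2 CPM in WT aerocytes.

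The second comparison concerned KO endothelial-like cells with no UMI of Id1 or Id3. The values of Id1 and Id3 chose these cells and are not a result. They were 144 of 494 KO endothelial-like cells, against 114 of 1499 in WT, and 96 of the 144 lay in the Igfbp3-led cluster, 20 in the Esm1-led cluster, 13 among aCap-like, 6 among gCap-like, 5 among arterial-like and 4 among lymphatic-like cells. Depth differed as well: the median depth was 4367.5 UMIs in KO negative and 5505.5 UMIs in other KO cells, and 1972.5 UMIs in WT negative and 4428 UMIs in other WT cells. All 14 endothelial markers were detected in negative KO cells, and they summed to 18135 CPM in negative and 22196 CPM in other KO cells, with Cdh5, the gene of VE-cadherin, at 2344 CPM in negative and 2080.5 CPM in other KO cells. Subtype markers summed lower as well, at 8003 CPM in negative and 10415 CPM in other KO cells for gCap, 3625 CPM in negative and 5157 CPM in other KO cells for aCap, and 1343 CPM in negative and 3195 CPM in other KO cells for arterial markers. Their part in the receptor differences was not tested.

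The 3 receptors of the BMP9 and BMP10 route were lower together in negative KO cells, and the TGF-beta type II receptor and betaglycan were higher. Acvrl1 stood at 500.3 CPM (447 to 558) in negative and 1221 CPM (1173 to 1271) in other KO cells, a ratio of 0.410 (0.364 to 0.460). Bmpr2 stood at 714 CPM (650.4 to 782) in negative and 1792 CPM (1734 to 1852) in other KO cells, a ratio of 0.398 (0.361 to 0.439). Eng stood at 522 CPM (468 to 581) in negative and 1325 CPM (1275 to 1376) in other KO cells, a ratio of 0.394 (0.351 to 0.442). None of these intervals overlapped, and the 3 ratios lay within each other's intervals. Tgfbr3 stood at 211 CPM (177 to 249) in negative and 98.0 CPM (84.7 to 113) in other KO cells, a ratio of 2.15 (1.71 to 2.69). Tgfbr2 stood at 164 CPM (134 to 199) in negative and 105 CPM (91.7 to 121) in other KO cells, a ratio of 1.56 (1.22 to 1.97). With 5 of 9 receptors past the size rule, the background was 12.1% of 8430 genes.

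The other receptors did not pass. Acvr2a had 65.1 CPM (46.9 to 87.9) in negative and 43.5 CPM (34.8 to 53.6) in other KO cells, with overlapping intervals. The ratio was 0.957 (0.557 to 1.58) for Acvr1, 1.18 (0.746 to 1.81) for Tgfbr1 and 1.03 (0.506 to 1.98) for Acvr2b. Bmpr1a was at 4.65 CPM in negative and 5.00 CPM in other KO cells, below the 10 CPM that the rule asks.

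**Figure D4:**
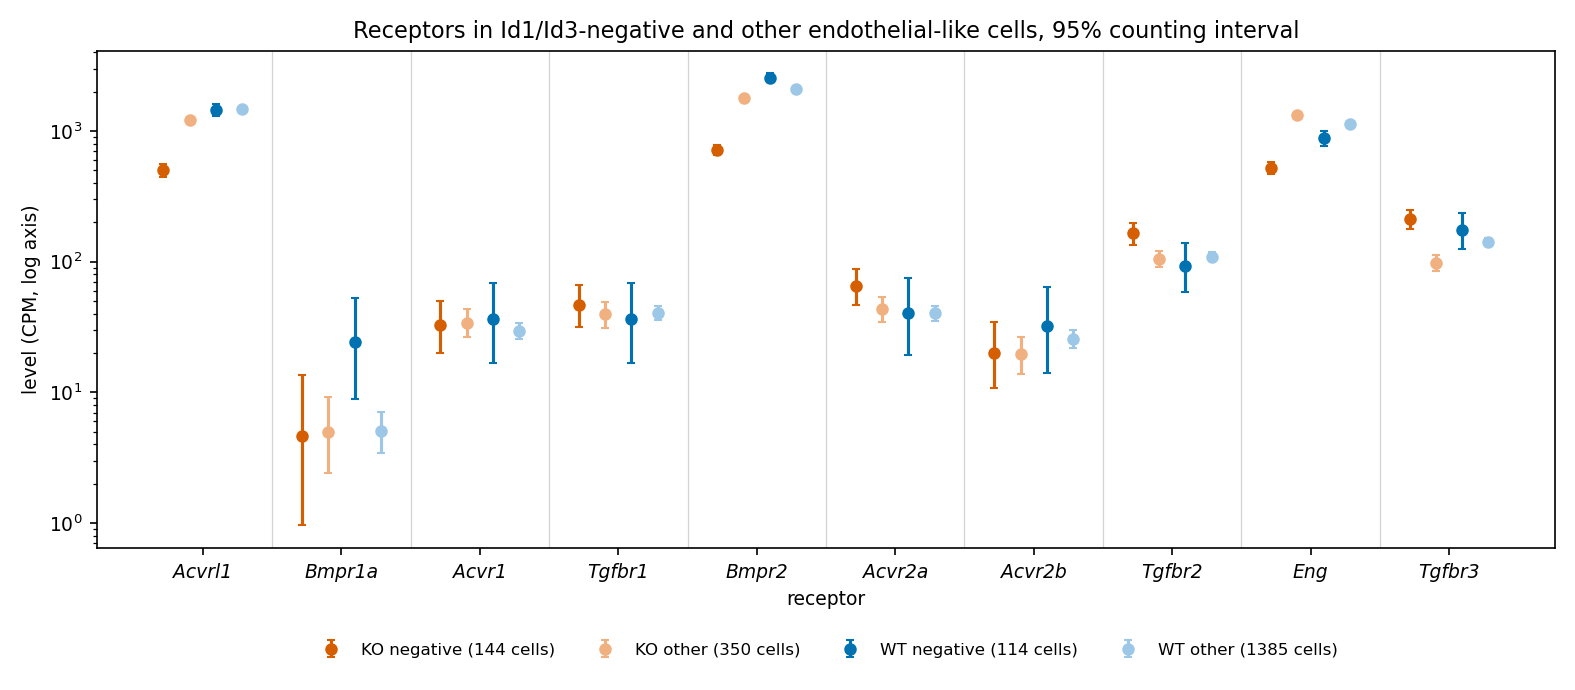
Level of each receptor (CPM, vertical log axis) in negative and other endothelial-like cells of the KO and WT libraries, with 95% counting intervals. For Acvrl1, Bmpr2 and Eng the KO negative cells sit below the other 3 sets of cells. WT negative cells lie below both sets of other cells for Eng alone among these 3, at 877 CPM (764 to 1002).

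The lower levels were seen per cell at equal depth. With each cell thinned to 1500 UMIs, which left out 19 negative and 8 other KO cells, an Acvrl1 UMI was found in 44% of negative and 78.9% of other KO cells. The shares were 64.8% of negative and 84.8% of other KO cells for Bmpr2, and 54.4% of negative and 81.9% of other KO cells for Eng. A UMI of all 3 genes was found in 13.6% (8.13 to 20.9) of negative and 59.6% (54.2 to 64.9) of other KO cells. In WT this share was 62.3% (50.6 to 73.1) of negative and 59.9% (57.2 to 62.6) of other cells, and it was 0 of 539 in KO (interval up to 0.682%) and 1 of 802 in WT AT2-like cells. Alone, Bmpr2 was found in 9.09% of KO and 12.7% of WT AT2-like cells and Eng in 0.742% of KO and 2.00% of WT AT2-like cells. Tgfbr3 was found in 31.2% of negative and 11.1% of other KO cells. Unthinned, Acvrl1 was found in 81.9% of negative and 93.4% of other KO cells.

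The 3 receptors of this route were also set against the number of Id1 and Id3 UMIs in a cell. Acvrl1 stood at 500.3 CPM in KO cells with 0 such UMIs, 553 CPM in the 44 with 1, 1296 CPM in the 78 with 2 to 5 and 1302 CPM in the 228 with more. In WT the same steps gave 1439, 1409, 1507 and 1449 CPM. Eng had 522, 862, 1302 and 1399 CPM in KO and 877, 864, 1084 and 1159 CPM in WT. In KO, cells with a single UMI thus resembled the negative ones for Acvrl1 and lay between the negative and the remaining cells for Eng. In WT, Acvrl1 was near the same level at every step, while Eng was lower at 0 and 1 UMIs than above. Bmpr2 had 714, 983, 2321 and 1781 CPM in KO and 2551, 2708, 2542 and 1909.7 CPM in WT, so its level peaked at 2 to 5 UMIs in KO and was lowest above 5 in WT. The steps also differed in depth, with medians of 4367.5, 4047.5, 4231.5 and 6011 UMIs in KO. In WT the medians were 1972.5, 2453.5, 3749 and 4957 UMIs. The part of depth and class in these levels was not tested.

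Against all WT endothelial-like cells, negative KO cells had 0.343 (0.306 to 0.383) of the Acvrl1 level, 0.336 (0.305 to 0.368) of the Bmpr2 level and 0.468 (0.419 to 0.522) of the Eng level, and Acvr2a and Tgfbr2 were higher by ratios of 1.62 (1.14 to 2.25) and 1.51 (1.22 to 1.86) (5 of 9 past the rule, background 18.0%). Tgfbr3 missed the rule at 1.48 (1.23 to 1.77). Without the Igfbp3-led cluster, and with doublets kept, 3 receptors passed, namely Acvrl1, Bmpr2 and Eng. Over all 17 alternatives, Acvr2a passed under 12 and Tgfbr2 under 10. Set against the WT cells that also lacked Id1 and Id3 UMIs, negative KO cells had ratios of 0.348 (0.298 to 0.405) for Acvrl1 and 0.280 (0.248 to 0.316) for Bmpr2. Eng stood at 522 CPM (468 to 581) in negative KO and 877 CPM (764 to 1002) in negative WT cells, and these 3 of 10 passed (background 15.9%). The 2 sets of negative cells differed in class. Of the 114 in WT, 54 lay in the Esm1-led cluster, 34 were gCap-like, 24 were aCap-like and none were in the Igfbp3-led cluster. That cluster held 96 of the 144 in KO. The part of class and depth in these ratios was not tested. Within WT, negative over other cells gave 0.985 (0.884 to 1.09) for Acvrl1, 1.21 (1.11 to 1.31) for Bmpr2 and 0.781 (0.679 to 0.894) for Eng, and only Bmpr1a passed, from 6 UMIs in negative and 32 in other cells (background 16.3%). The remaining KO cells over the WT cells with Id1 or Id3 had 0.836 (0.799 to 0.874) for Acvrl1, 0.849 (0.818 to 0.881) for Bmpr2 and 1.18 (1.13 to 1.23) for Eng, with none past the rule (background 6.25%).

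Of the 71 other pathway genes, 44 were tested between negative and other KO cells, and 8 were higher and 12 lower, beside 12.1% of all genes called in either direction. Id1 and Id3 are among the lower ones by the choice of cells. The ligands Tgfb2 and Bmp4 were higher, Tgfb2 at 201 CPM in negative and 37.0 CPM in other KO cells and Bmp4 at 254 CPM in negative and 52.5 CPM in other KO cells. Smad1 stood at 655 CPM in negative and 131 CPM in other KO cells. The inhibitory Smad7 stood at 110.0 CPM in negative and 597 CPM in other KO cells, and Smad6 at 122 CPM in negative and 546 CPM in other KO cells. Of the 17 target genes 14 were tested, with 8 lower, Id1 and Id3 among them by the choice of cells, and 3 higher, against the same 12.1%. Among the lower targets were Tmem100, a target of ALK1 signalling, at 1022 CPM in negative and 2431 CPM in other KO cells, and the Notch and BMP target Hey1, while Ctgf and Tgfbi, known as TGF-beta targets, were among the higher ones. Both are also among the 10 leading genes of the Igfbp3-led cluster, which held 96 of the 144 negative cells. Their calls are therefore not separate from that cluster's own markers. Ctgf stood at 971 CPM in negative and 218 CPM in other KO cells. Further calls were Inhbb and Lrrc32 higher and Ltbp1, Mgp, Smurf2, Skil, Id2 and Stc1 lower. Inside the Igfbp3-led cluster, 1 of 43 tested pathway genes was higher and 4 lower (background 3.20%), with no ligand or SMAD called. Among KO cells with Xist alone, 6 of 42 were higher and 5 lower (background 7.16%). With Y-linked transcripts alone, 6 of 45 were higher and 15 lower (background 10.2%). The part of cluster and sex in the pooled calls was not tested.

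The receptor levels were then split by cluster. Inside the Igfbp3-led cluster, 96 negative and 25 other KO cells had overlapping Acvrl1 intervals, 407 CPM (352 to 468) in negative and 408 CPM (322 to 510.0) in other cells, and no receptor passed the rule (background 3.20%). Bmpr2 had 611 CPM in negative and 503 CPM in other cells there, and Eng 457 CPM in negative and 652 CPM in other cells. Outside that cluster, 48 negative cells with a median depth of 2399 UMIs had an Acvrl1 ratio of 0.601 (0.498 to 0.719) over the other 325 KO cells, a Bmpr2 ratio of 0.534 (0.454 to 0.625) and an Eng ratio of 0.517 (0.425 to 0.624), and these 3 of 9 tested passed (background 7.62%). Tgfbr2 and Tgfbr3 did not pass outside the cluster, with a ratio of 1.72 (1.11 to 2.59) for Tgfbr2, and Tgfbr3 at 132 CPM (81.6 to 201) in negative and 94.4 CPM (80.8 to 109.6) in other cells. Since the Igfbp3-led cluster had only 2 WT cells, cell state and library cannot be told apart in it.

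The split by sex-linked transcripts gave different results. Among KO cells with Y-linked transcripts alone, 53 negative and 214 other cells had an Acvrl1 ratio of 0.444 (0.373 to 0.525), a Bmpr2 ratio of 0.346 (0.297 to 0.403), an Eng ratio of 0.394 (0.329 to 0.469) and a Tgfbr3 ratio of 2.59 (1.89 to 3.51), and these 4 of 9 passed (background 10.2%). Among KO cells with Xist alone, 53 negative and 24 other cells both had low Acvrl1 levels with overlapping intervals, 447 CPM (371 to 533) in negative and 437 CPM (348 to 541) in other cells. Eng was likewise low in both, at 487 CPM in negative and 479 CPM in other cells. Bmpr2 passed the rule upwards, at 701 CPM (606 to 807) in negative and 348 CPM (270.1 to 443) in other cells (1 of 9, background 7.16%). Of the 77 KO cells with Xist alone, 56 lay in the Igfbp3-led cluster, against 45 of the 267 with Y-linked transcripts alone. In that cluster Acvrl1 was 383 CPM (320.0 to 454) in cells with Xist alone and 472 CPM (389.6 to 566) in cells with Y-linked transcripts alone.

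**Figure D5:**
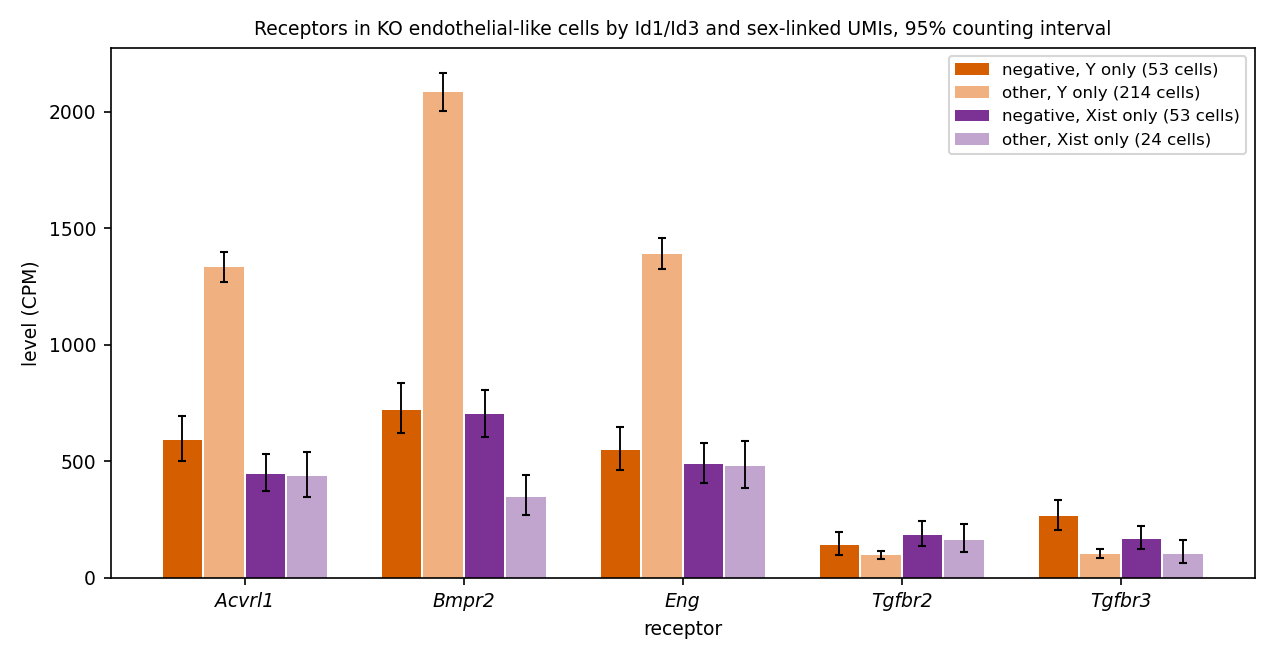
Level of 5 receptors (CPM, bars with 95% counting intervals) in KO endothelial-like cells, split by Id1 and Id3 and by sex-linked transcripts. Of the 4 sets of cells shown, the other cells with Y-linked transcripts alone stand highest for Acvrl1, Bmpr2 and Eng, at 1333, 2083 and 1391 CPM.

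Markers of other cell types were set beside these differences. The 7 lymphatic markers, all with at least 1 UMI, summed to 5835 CPM in negative and 2185 CPM in other KO cells, of which Lyve1 made up 4413 CPM in negative and 1686 CPM in other cells. Without the 7 KO cells that carried at least 3 of Prox1, Lyve1, Ccl21a and Mmrn1, 5 receptors still passed the rule. The 10 AT2 markers summed to 3607 CPM in negative and 2615 CPM in other KO cells, and with their UMIs taken out of the totals 5 receptors passed. The 8 pericyte markers summed to 65.1 CPM in negative and 32.0 CPM in other cells, with the largest, Higd1b, at 21.7 CPM in negative cells. The 8 smooth muscle markers summed to 195 CPM in negative and 72.5 CPM in other cells, and their part in the differences was not tested.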

How the data were processed

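Per the labels' protocols, libraries were made with the 10x Genomics 3' v3 kit from dispase-treated, sorted lung cells. The authors deposited unnormalized UMI counts, and the submitters' processing notes name Cell Ranger 3.0.1 and mm10. Acvrl1, Bmpr1a, Acvr1, Acvr2a and Eng overlap a counted gene on the opposite strand.

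Barcodes needed 500 detected genes and a mitochondrial share of no more than 10% (1326 KO and 2745 WT passed), and Scrublet in scanpy 1.11.5 removed 12 KO and 37 WT doublets. Cells were clustered with Leiden (leidenalg 0.10.2, resolution 1, 30 components, 20 neighbors) on 2000 variable genes without the 10 receptors, and again on the 1376 left after genes that differed between libraries within a class were removed, giving 17 clusters. A name needed at least 3 markers in 10% of cells at 2-fold, and a marker of its own among the 10 leading genes. This scoring was revised after the clusters had been seen. Clusters 9 and 11, of low depth, stayed unnamed, and a difference from the study's own classes may come from these rebuilt names. Igfbp3, Trp53i11 and Peg3 led the Igfbp3-led cluster, and Tgfbi and Ctgf were also among its 10 leading genes.

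UMIs were summed per class and library, as CPM with exact Poisson intervals, shares of cells had exact Clopper-Pearson intervals and ratios exact conditional binomial intervals (scipy 1.17.1). Shares were compared after thinning each cell to 1500 UMIs. The call rule was run on simulated Poisson counts with known changes, which hold no variation between cells, animals or libraries and so cannot check that error. The genes named were the 10 receptors, the 3 genes nearest to each of Acvrl1, Eng, Bmpr2, Tgfbr2 and Tgfbr3 (at least 50 CPM in 1 profile), pathway genes past the size rule, and markers. Members, lists and comparisons were chosen with earlier results of these data known. The splits by cluster, by sex in KO over WT, by number of Id UMIs and against negative WT cells were chosen after seeing the data. Alternatives changed the cell filter, doublet step, clustering, thinning, scaling, CPM minimum and choice of negative cells. Leaving out AT2 marker UMIs, shared barcodes or the Igfbp3-led cluster was added after seeing the data. Coordinates are from GENCODE M21, in which 27645 of 27998 gene IDs matched. A gene of the pathway list is counted but not reported by name here.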

Additional observations from a re-analysis of the deposited data

Results flagged for a closer look

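The Bmpr2 difference between Id1/Id3-negative and other KO endothelial-like cells went opposite ways in the split by sex-linked transcripts. Its log2 ratio was 1.01 in cells with Xist alone and -1.53 in cells with Y-linked transcripts alone. The difference between the sexes was not tested, since both come from 1 library, and the other cells with Xist alone numbered 24. The sets also differed in class. Of cells with Xist alone 56 of 77 lay in the Igfbp3-led cluster, against 45 of 267 with Y-linked transcripts alone. In that cluster Bmpr2 was 542 CPM (467 to 625) with Xist alone and 636 CPM (540 to 744) with Y-linked transcripts alone. Among gCap-like KO cells 106 had Y-linked transcripts alone and none Xist alone, so these ratios do not separate sex from class.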

How the results depend on the processing

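No paired analysis was possible because each group was 1 library. Over all endothelial-like cells no receptor passed the size rule under any of 13 alternatives. In gCap-like cells the single call, Tgfbr3, held under 10 of 12 alternatives and went to 0 with thinning to 1500 UMIs and at resolution 2. In aerocytes the count stayed at 0 under 11 of 12 and was 4 by the mean of per-cell CPM, where no interval was applied and no share over all genes was taken. For negative over other KO cells the 5 calls became 3 without the Igfbp3-led cluster and 1 among cells with Xist alone, where the log2 ratio turned to 0.033 for Acvrl1, 0.025 for Eng and 1.01 for Bmpr2. Under the other 16 the count was 4 or 5. Acvrl1, Bmpr2 and Eng each kept their call under 17 of 18, Tgfbr3 under 16 and Tgfbr2 under 12. For negative KO over WT cells the 5 calls became 3 with doublets kept and without the Igfbp3-led cluster, and were 4 to 6 otherwise. Acvrl1, Bmpr2 and Eng kept their calls under all 17, Acvr2a under 12 and Tgfbr2 under 10. Cells with Y-linked transcripts alone gave no value there because WT had none. Of 134 levels with at least 20 UMIs and cells, 91 stayed inside their interval when thinned and 114 as the mean of per-cell CPM. The cause of these changes was not tested. Receptors of low level rest on few UMIs in small classes, where intervals are wide, and sex, animal and library cannot be told apart.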

Other observations

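Lymphatic-like cells were too few for the comparisons, with 7 in KO and 3 in WT. Their most abundant receptor was Tgfbr2, at 330.3 CPM (212 to 491) in KO and 797 CPM (412 to 1393) in WT, from 24 UMIs in KO and 12 UMIs in WT. Acvrl1 had 2 UMIs in each library and Bmpr2 5 UMIs in KO and 3 UMIs in WT.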
